A study of Mus musculus with 6 samples.

Results

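The 10 genes described here, Cdkn1a, Cdkn1b, Cdkn2a, Cdkn2b, Cdkn2c, Cdkn2d, Trp53, Mdm2, Ccng1 and Trp53inp1, encode inhibitors of the cyclin-dependent kinases (CDKs) and the core of the p53 response. They were taken by gene symbol from the 34745 genes of the table, with earlier results of these data known, and all 10 were found and tested. RNA was sequenced from wild-type (WT) primary mouse renal fibroblasts that grew alone (3 libraries) or below a transwell insert holding Th17 cells (3 libraries). The fibroblasts adhered for 6 h before the insert, with pores of 0.4 μm, was put in place, and the coculture ran for 24 h. The Th17 cells were splenic CD4+ T cells driven toward a pathogenic Th17 state on anti-CD3 and anti-CD28 with IL-1β, IL-6, IL-23 and anti-IFN-γ. The fibroblasts came from digested kidney and were grown in a complete fibroblast medium, with no sorting step described, and the methods name Balb/c for the mice of the study without giving the age of the fibroblast donors. Whether the lone wells carried an empty insert was not stated, nor how long they were cultured after adherence. It was also not stated if the libraries within each group represent different mice or cultures. The p-values below therefore measure only the spread between these libraries, which may be technical. The comparison asked which transcripts of fibroblasts differed after exposure to soluble products of Th17 cells.

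Progress from G1 to S phase depends on cyclin D with CDK4 or CDK6 and on cyclin E with CDK2, which together phosphorylate the Rb proteins and free the E2F factors. The INK4 proteins (p16Ink4a, p15Ink4b, p18Ink4c and p19Ink4d) bind CDK4 and CDK6 and keep cyclin D away, whereas the CIP/KIP proteins p21 and p27 act on cyclin-CDK complexes, above all those of CDK2. The p53 protein is controlled mainly by its stability: Mdm2 is the ubiquitin ligase that marks it for degradation, and Mdm2 is itself a p53 target, which closes a negative feedback loop. Cdkn1a (p21), Ccng1 (cyclin G1, which recruits a phosphatase to Mdm2) and Trp53inp1 (a stress protein that promotes p53 phosphorylation and autophagy) are transcriptional targets of p53. In kidney fibrosis these genes are studied as markers of cell cycle arrest and senescence.

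The promoter of Cdkn1a is shown first because it held the one full p53 site found in the promoter windows searched for these genes. A p53 site is made of a pair of decamers, each with a core of C, then 2 letters that are A or T, then G, flanked by 3 purines before and 3 pyrimidines after. RefSeq windows on GRCm38.p6, from 250 bases before to 50 bases after each transcription start, were matched by symbol to 9 of the 10 genes (12 windows). A full site was counted where 2 decamers stood side by side with both cores exact and at most 1 other letter off. It occurred in 18 of 32851 windows of all genes (0.0548%) and in 1 of the 12 windows here. Sequence outside the windows was not searched, so a gene without a site here may hold one elsewhere. The 250 bases upstream of the first Cdkn1a start (chr17:29090729-29090978, plus strand) are printed below with that site in capitals.

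Cdkn1a: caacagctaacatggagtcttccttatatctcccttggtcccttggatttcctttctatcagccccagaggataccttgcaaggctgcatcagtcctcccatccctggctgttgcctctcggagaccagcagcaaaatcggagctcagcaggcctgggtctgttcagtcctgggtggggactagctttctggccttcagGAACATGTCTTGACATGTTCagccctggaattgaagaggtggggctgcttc

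This site lay 51 to 32 bases before the start, at chr17:29090928-29090947, and differed from the consensus at 1 letter. The second annotated Cdkn1a start lies 2790 bases downstream, and the gene-level count holds transcripts from both.

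A single exact decamer, searched in the same way, occurred in 2745 of the 32851 windows (8.36%) and in 5 of the 12 windows here, those of Cdkn1a, Mdm2, Ccng1, Trp53 and Cdkn2d. The last 4 are printed with 25 bases on either side, 5′ to 3′ on the strand of the gene, to show the letters behind each match, which is a description of these windows and not evidence of binding. They lie at chr10:117710910-117710969 (minus strand, Mdm2), chr11:40755437-40755496 (minus, Ccng1), chr11:69580259-69580318 (plus, Trp53) and chr9:21291277-21291336 (minus, Cdkn2d).

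Mdm2: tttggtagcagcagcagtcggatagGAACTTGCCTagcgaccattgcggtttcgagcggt

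Ccng1: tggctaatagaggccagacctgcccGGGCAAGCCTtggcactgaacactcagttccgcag

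Trp53: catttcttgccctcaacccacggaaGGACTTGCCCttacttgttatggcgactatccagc

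Cdkn2d: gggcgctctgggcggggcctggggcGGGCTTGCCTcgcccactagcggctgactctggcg

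The decamer began 186 bases before the start of Mdm2, 185 before that of Ccng1, 75 before that of Trp53 and 102 before that of Cdkn2d. The genes with a decamer therefore included members that were higher, lower and without a call in the comparison below.

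The libraries held between 12050529 and 13209581 counts, and 13088 genes had enough counts to be tested. Markers of the labelled cell type were present: 7 of 7 fibroblast genes passed the filter, and their summed level was 27700 to 29600 CPM (counts scaled by library total and TMM factor) in lone fibroblasts and 12000 to 13500 CPM in coculture, with Col1a1 and Col1a2 by far the largest part of the sum in both. The genes did not move as one: these collagen genes went from 15070 ± 731 to 6228 ± 490 CPM and from 12460 ± 328 to 4621 ± 228 CPM. Pdgfra went from 179 ± 1.298 to 141 ± 10.4 CPM and Pdgfrb from 250.5 ± 9.81 to 197.5 ± 33.5 CPM. Thy1 went from 357 ± 1.06 to 247 ± 15.5 CPM and Lum from 7.47 ± 0.382 to 3.15 ± 0.182 CPM. Only Dcn was higher, at 504.5 ± 3.06 alone and 1427 ± 50.4 CPM in coculture (n = 3 each). Of 8 T cell genes 1 passed the filter (Trac), Cd3d, Cd2 and Il17a had 0 counts in every library, and the summed level was 2.02 to 3.32 CPM alone and 2.12 to 3.35 CPM in coculture. Summed levels of 6 macrophage genes were 45.7 to 47.7 CPM alone and 8.14 to 10.2 CPM in coculture (4 of 6 passed the filter; Adgre1 was at 0 counts in every coculture library), those of 4 endothelial genes 6.79 to 7.52 and 1.60 to 2.75 CPM (2 of 4 passed; the difference lay in Kdr, at 5.55 and 0.127 CPM, whereas Pecam1 was at 1.24 and 1.32 CPM and Tek at 0.215 and 0.615 CPM), and those of 4 epithelial genes 2.62 to 3.80 and 0.393 to 0.989 CPM (1 of 4 passed, Lrp2). These differences moved with the groups, and their part in the results below was not tested. In bulk RNA, fewer cells of a kind and less RNA per cell cannot be told apart.

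Of the 10 genes, 3 were higher in coculture (Ccng1, Mdm2 and Cdkn1a), 4 were lower (Cdkn2c, Cdkn1b, Cdkn2b and Cdkn2d) and 3 did not pass the test (Cdkn2a, Trp53 and Trp53inp1), at a Benjamini-Hochberg adjusted p below 0.05 over all 13088 genes in the quasi-likelihood test of edgeR. Calls were common in this comparison: 37.1% of all genes tested were called, 17.1% as higher and 20% as lower. With library size as the only scaling, 43.9% of the genes called were lower, against 53.8% with TMM scaling, so the balance of directions over all genes leaned on the scaling. For 7 of the 10 genes every CPM value of one group lay apart from the other group, which was true of 50.4% of all genes tested. When a fold change above 2 was required as well, 0 of the 10 were called higher and 1 lower (Cdkn2c), where 11.6% of all genes met both criteria (3.87% higher and 7.78% lower). The median log2 fold change of the 10 genes was 0.02, against 0.00 over all genes tested, with genes moving in both directions from −1.33 to 0.95. Unless stated otherwise, the CPM values below are TMM-normalized, a fold change is coculture over alone, and errors of means are SDs over 3 libraries.

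**Figure D1:**
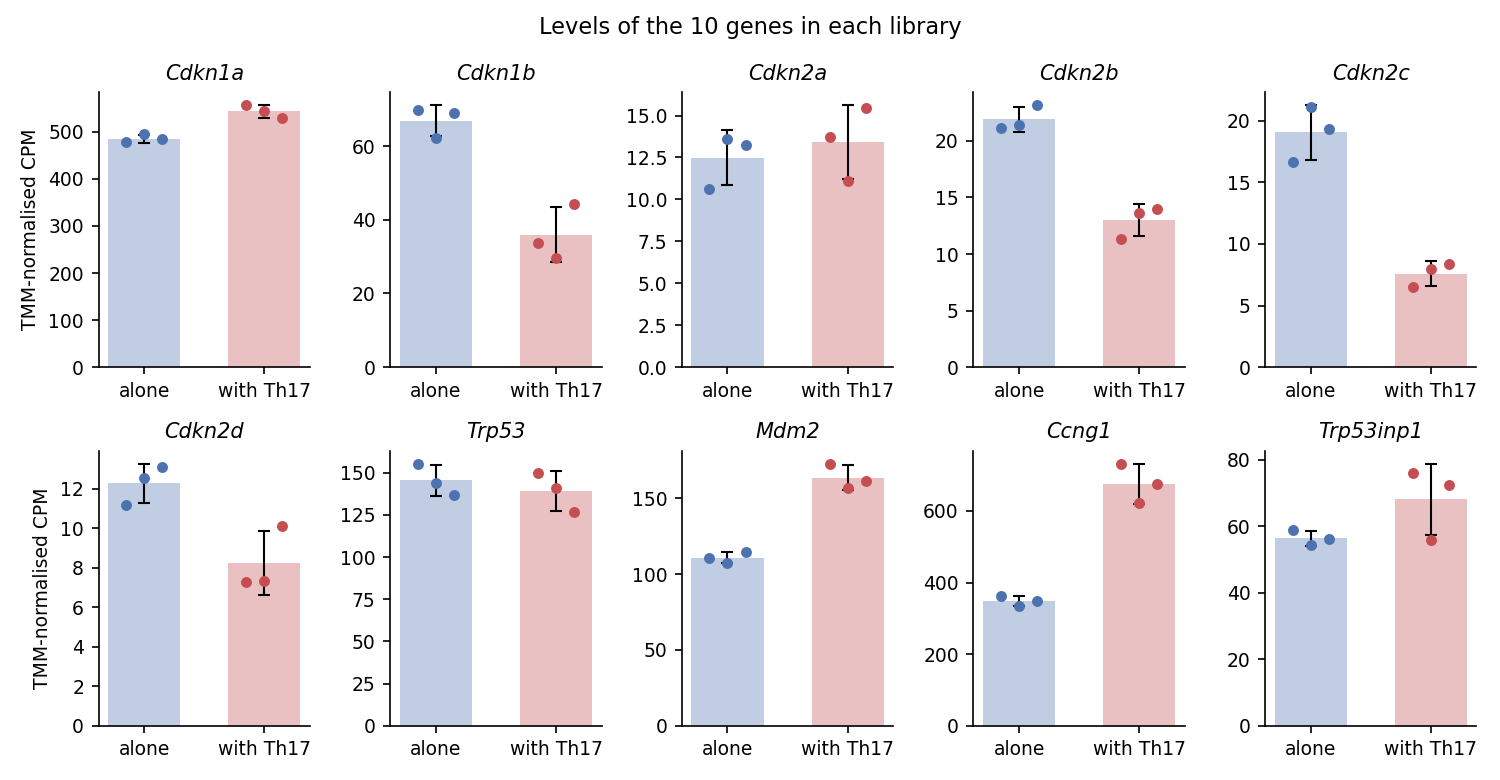
TMM-normalized CPM (y axis, linear from 0, own scale per gene) of the 10 genes in fibroblasts alone and with Th17 cells. Points are libraries, bars are means and whiskers are SDs (n = 3). The points of the groups are apart for all but Cdkn2a, Trp53 and Trp53inp1.

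Among the CIP/KIP inhibitors, Cdkn1b fell and Cdkn1a was slightly higher. Cdkn1b (chromosome 6, 134920401-134925513, plus strand, ENSMUSG00000003031) encodes p27, which holds CDK2 in check in resting cells and is removed by the Skp2 ubiquitin ligase as cells enter the cycle. It stood at 69.8, 62.2 and 69.0 CPM in the lone libraries and at 33.8, 29.7 and 44.3 CPM in coculture. All coculture values lay below all lone values, and the third coculture library lay nearest to them. The mean went from 67.0 ± 4.18 to 35.9 ± 7.51 CPM (n = 3 each), a 1.86-fold lower level with a log2 fold change of −0.90 (SE 0.14, 95% interval −1.21 to −0.59, edgeR adjusted p = 0.000819). The call held in all 14 alternative analyses, with log2 fold changes from −1.07 to −0.73.

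Cdkn1a (chromosome 17, 29090979-29100722, plus strand, ENSMUSG00000023067) encodes p21, the CDK2 inhibitor through which p53 stops the cycle. It was the most highly expressed of the 10 genes per length, and its counts ran from 5734 to 7488. The lone libraries were at 478, 494 and 485 CPM and the coculture libraries at 557, 544 and 530 CPM. The groups did not overlap, but the gap between the highest lone and the lowest coculture library was small beside the levels themselves. The mean was 486 ± 8.34 CPM alone and 544 ± 13.3 CPM in coculture (n = 3 each), a fold change of 1.12 and a log2 fold change of 0.16 (SE 0.05, 95% interval 0.05 to 0.28, edgeR adjusted p = 0.0355). This call was lost in 8 of 14 alternatives, although the log2 fold change was positive in each (0.15 to 0.23): the adjusted p was 0.0635 with DESeq2, 0.0557 without the filter on low counts, 0.0691 with the replicate number as a block, 0.107, 0.0780 and 0.1196 without lone replicate 1, 2 or 3, and 0.0924 and 0.0592 without coculture replicate 1 or 2. An antisense transcript, AC167363.2, overlaps the gene and shares 6.34% of its 50-base stretches, and the sources do not say if the strand of reads was used.

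The INK4 inhibitors fell for 3 of the 4 genes, with a median log2 fold change of −0.66, where 20% of all genes tested were called lower. Cdkn2c (chromosome 4, 109660876-109667189, minus strand, ENSMUSG00000028551) encodes p18Ink4c, an inhibitor of CDK4 and CDK6. It had 16.7, 21.1 and 19.4 CPM in the lone libraries and 6.47, 7.93 and 8.37 CPM in coculture. Every coculture library held less than the lowest lone library by a wide margin. The mean went from 19.04 ± 2.22 to 7.59 ± 0.995 CPM (n = 3 each), 2.51-fold lower (log2 fold change −1.33, SE 0.14, 95% interval −1.65 to −0.999, edgeR adjusted p = 0.000108). This was the only one of the 10 genes past a fold change of 2, with 87 to 110 counts in coculture, and its log2 fold change ranged from −1.42 to −1.02 over the 14 alternatives with the call kept in each.

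Cdkn2b (chromosome 4, 89306289-89311032, minus strand, ENSMUSG00000073802) encodes p15Ink4b, known as a gene that TGF-β induces. It was at 21.1, 21.4 and 23.2 CPM alone and at 11.4, 13.6 and 14.0 CPM in coculture. The groups were well apart, with little spread within either. The mean went from 21.9 ± 1.11 to 13.0 ± 1.41 CPM (n = 3 each), 1.69-fold lower (log2 fold change −0.75, SE 0.12, 95% interval −1.01 to −0.49, edgeR adjusted p = 0.000855), and the call held in 14 of 14 alternatives.

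Cdkn2a lies next to Cdkn2b on the same strand of chromosome 4 (89274471-89294653, minus strand, ENSMUSG00000044303) and gives rise to a pair of proteins from different starts: p16Ink4a, and p19Arf, which binds Mdm2 and so stabilizes p53. The annotated starts are 12427 bases apart, and a count per gene cannot tell these transcripts from each other. Cdkn2a was at 10.6, 13.6 and 13.3 CPM alone and at 13.8, 11.1 and 15.4 CPM in coculture. The groups overlapped, with lone replicate 1 and coculture replicate 2 at the low end. The mean was 12.5 ± 1.62 CPM alone and 13.4 ± 2.20 CPM in coculture (n = 3 each), and the log2 fold change of 0.10 had an interval from −0.25 to 0.46 (SE 0.16, edgeR adjusted p = 0.640), which leaves room for a change of either sign. Its sign turned without lone replicate 1 (−0.0014) and without coculture replicate 3 (−0.0053). Transcripts of Cdkn2a and Cdkn2b did not share any 50-base stretch.

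Cdkn2d (chromosome 9, 21288463-21291209, minus strand, ENSMUSG00000096472) encodes p19Ink4d, whose level cycles with S phase. It had 11.2, 12.6 and 13.1 CPM alone and 7.29, 7.31 and 10.1 CPM in coculture. The groups did not overlap, but coculture replicate 3 came close to lone replicate 1. The mean went from 12.3 ± 0.994 to 8.24 ± 1.63 CPM (n = 3 each), 1.49-fold lower (log2 fold change −0.57, SE 0.16, 95% interval −0.94 to −0.21, edgeR adjusted p = 0.0207). This call was lost in 4 of 14 alternatives. The edgeR adjusted p was 0.0689 and 0.0742 without lone replicate 2 or 3, and 0.0636 and 0.0709 without coculture replicate 1 or 2.

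The makeup of the INK4 genes differed between the groups. Length-scaled levels (FPKM) are counts scaled by library total and by a length per gene. Of the summed FPKM of the INK4 genes, Cdkn2a made up 20.2%, 22.8% and 21.8% in the lone libraries and 37.7%, 30.1% and 34.4% in coculture. These values did not overlap, although the level of Cdkn2a itself did not pass the test. The summed FPKM was 36.5, 41.4 and 42.4 alone and 26.6, 26.6 and 32.9 in coculture. As the other INK4 genes in the sum were called lower, the larger share of Cdkn2a follows from the calls above and is not a separate result. The shares also rest on the lengths used. Cdkn2c went the other way, from 15.8%, 17.6% and 15.9% to 8.81%, 10.7% and 9.27%. The share of Cdkn2b overlapped between the groups (36.3% to 40.5% alone, 31.4% to 37.3% in coculture), as did that of Cdkn2d (23.3% to 23.9% alone, 21.95% to 24.9% in coculture). Cdkn2b held the largest share in each lone library, while in coculture Cdkn2a had the largest in replicates 1 and 3 and Cdkn2b in replicate 2.

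**Figure D2:**
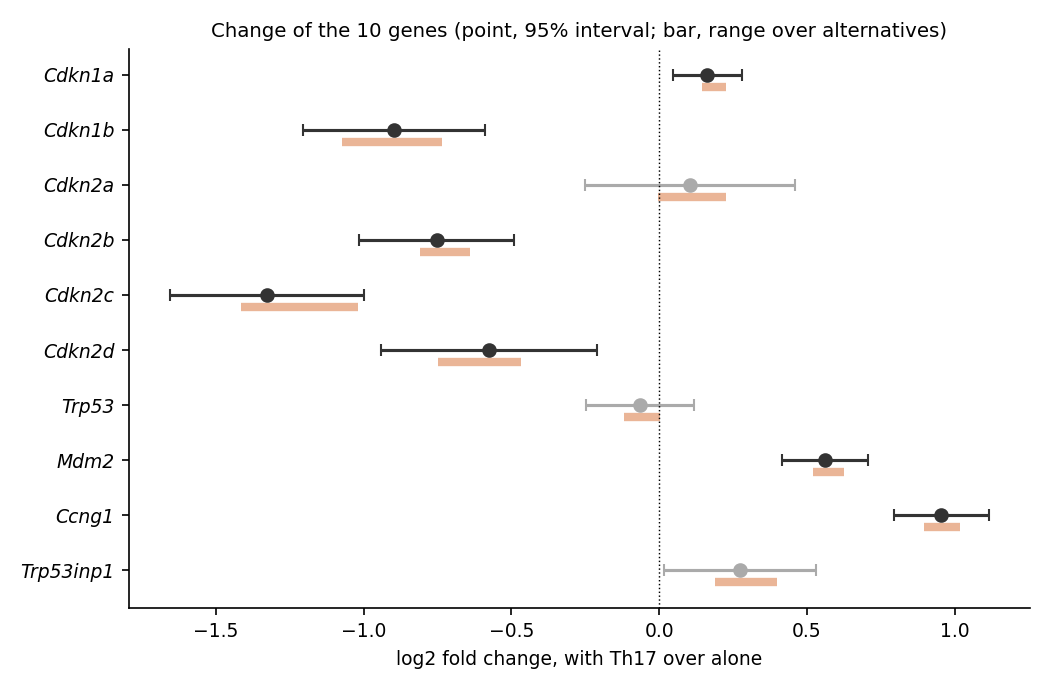
Log2 fold change with Th17 cells over alone (x axis) for each of the 10 genes. Points and whiskers are edgeR estimates with 95% intervals (dark where the adjusted p was below 0.05, grey otherwise), and the orange bar under each is the range over 14 alternative analyses. Cdkn2c, Cdkn1b, Cdkn2b and Cdkn2d lie left of 0, Ccng1 and Mdm2 well to the right, and Cdkn1a close to 0 on the right.

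The p53 transcript itself did not pass the test, while Mdm2 and Ccng1 rose. Trp53 (chromosome 11, 69580359-69591873, plus strand, ENSMUSG00000059552) was at 155, 144 and 137 CPM alone and at 150, 141 and 127 CPM in coculture. The groups overlapped over most of their range. The log2 fold change was −0.06 (SE 0.08, 95% interval −0.25 to 0.12, edgeR adjusted p = 0.578), with means of 145 ± 9.37 and 139 ± 11.8 CPM (n = 3 each), and it moved to 4.7e-05 when library size alone set the scaling and to 0.0029 without coculture replicate 3. RNA levels do not measure the amount or activity of the p53 protein. Trp53 shares 3.64% of its 50-base stretches with the pseudogene Trp53-ps, which had at most 1 count in any library.

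Ccng1 (chromosome 11, 40748552-40755311, minus strand, ENSMUSG00000020326) showed the largest rise of the 10 genes. It had 4660, 4242 and 4135 counts in the lone libraries and 9848, 7913 and 8859 in coculture, or 362, 335 and 350 CPM against 732, 622 and 674 CPM. The lowest coculture library was far above the highest lone library. The mean went from 349 ± 13.3 to 676 ± 55.4 CPM (n = 3 each), a fold change of 1.94 (log2 fold change 0.95, SE 0.07, 95% interval 0.79 to 1.12, edgeR adjusted p = 8.52e-06), just under the fold limit of 2.

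Mdm2 (chromosome 10, 117688888-117710758, minus strand, ENSMUSG00000020184), the antagonist of p53, was at 111, 107 and 115 CPM alone and at 173, 157 and 161 CPM in coculture. Both groups were tight and apart. The mean went from 111 ± 3.78 to 164 ± 8.33 CPM (n = 3 each), a fold change of 1.48 (log2 fold change 0.56, SE 0.06, 95% interval 0.42 to 0.71, edgeR adjusted p = 0.000148). The calls of Mdm2 and Ccng1 held in 14 of 14 alternatives, with log2 fold changes of 0.52 to 0.63 for Mdm2 and 0.89 to 1.02 for Ccng1.

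Trp53inp1 (chromosome 4, 11156431-11174379, plus strand, ENSMUSG00000028211) was at 58.7, 54.3 and 56.0 CPM alone and at 75.9, 55.9 and 72.4 CPM in coculture. Replicates 1 and 3 of the coculture stood above all lone libraries, and replicate 2 stood among them. The log2 fold change of 0.27 (SE 0.11, 95% interval 0.02 to 0.53) had an adjusted p of 0.0882 in edgeR, with means of 56.3 ± 2.22 and 68.1 ± 10.7 CPM (n = 3 each). It passed the threshold with library size as the only scaling (0.34, adjusted p = 0.0439) and without coculture replicate 2 (0.40, adjusted p = 0.00585).

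A ratio of counts within a library does not depend on scaling. Relative to Trp53, Ccng1 stood at 2.33, 2.33 and 2.55 counts per Trp53 count in the lone libraries and at 4.89, 4.40 and 5.33 in coculture. For Mdm2 the ratios were 0.711, 0.745 and 0.839 alone and 1.15, 1.11 and 1.27 in coculture, and for Cdkn1a 3.07, 3.44 and 3.54 alone and 3.71, 3.85 and 4.19 in coculture. The groups did not overlap for these genes, nor for Cdkn1b, Cdkn2b and Cdkn2c, whose ratios were lower in coculture. How many of all genes had ratios to Trp53 without overlap was not computed. In CPM the groups did not overlap for 50.4% of all genes tested. The ratios overlapped for Cdkn2a, Trp53inp1 and Cdkn2d, the last with 0.0719 to 0.0957 alone and 0.0486 to 0.0800 in coculture.

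The coculture libraries varied more than the lone libraries at these genes. The coefficient of variation of CPM was higher in coculture for 10 of the 10 genes, at 1.72% to 13.0% alone and 2.44% to 20.9% in coculture. The share of all genes with a higher coefficient in coculture was not computed. A chi-square per gene between pairs of libraries, not limited to the 10 genes, was 6.30 to 7.31 alone and 8.37 to 15 in coculture. Among the coculture libraries, replicate 1 held the highest value for 5 genes and replicate 3 for the other 5, while replicate 2 was lowest for 5. The genes share these 3 libraries, so the counts describe the libraries and are not independent of each other.

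Levels of different genes were compared per length, in FPKM. The length used for a gene, as implied by its count, FPKM and the library total, need not be that of a transcript. For Cdkn1b it was 7580 bases, longer than the span of the gene (134920401-134925513). The order of genes below rests on these lengths. In the lone fibroblasts Cdkn1a (155 ± 2.81 FPKM) and Ccng1 (79.1 ± 2.95) stood far above the other genes, and Trp53 (20.01 ± 1.23), Cdkn2b (15.4 ± 0.829) and Mdm2 (11.1 ± 0.403) followed, each apart from its neighbors in every library. Cdkn2d, Cdkn2a, Cdkn1b and Trp53inp1 came next, at means of 9.45, 8.70, 8.64 and 7.66 FPKM, and neighbors in this run overlapped except Cdkn1b and Trp53inp1, whose values were apart (8.02 to 8.98 and 7.38 to 7.96 FPKM). Cdkn2c was lowest, at 6.59 ± 0.777 FPKM. In coculture Cdkn1a (181 ± 4.01 FPKM) and Ccng1 (160 ± 13.6) remained first, and the ratio between them was much smaller. Trp53 was at 20.01 ± 1.63 FPKM, and Mdm2, at 17.1 ± 0.907 FPKM, passed Cdkn2b, which at 9.53 ± 1.04 FPKM fell back among Cdkn2a (9.77 ± 1.66) and Trp53inp1 (9.68 ± 1.57), whose values overlapped with it. Cdkn2d (6.63 ± 1.35 FPKM) and Cdkn1b (4.85 ± 1.05) overlapped as well, and Cdkn2c was lowest again at 2.75 ± 0.364 FPKM (n = 3 for each mean).

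**Figure D3:**
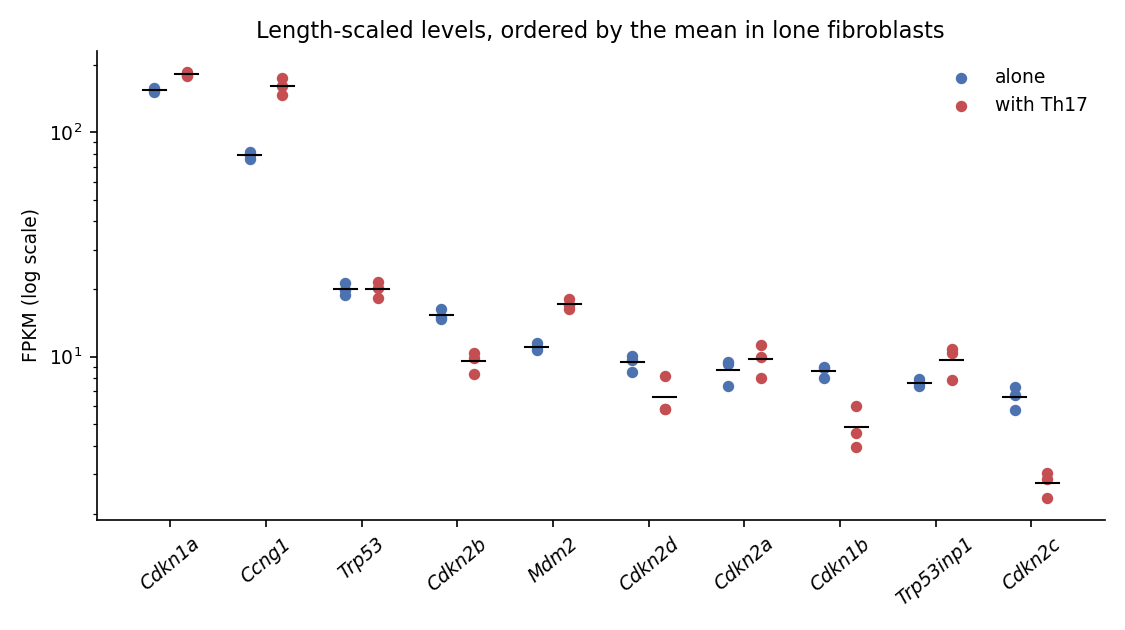
FPKM (y axis, log scale) of the 10 genes in each library, ordered by the mean in lone fibroblasts. Points are libraries and black lines are group means (n = 3). Cdkn1a and Ccng1 lie well above the rest in both groups, and Cdkn2c is lowest in both.

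Beyond the 10 genes, 29 further genes were examined as p53 targets, of which 28 were tested. The list also took in Trp53inp2 and Ccng2, relatives of Trp53inp1 and Ccng1 that may not be p53 targets themselves. Trp53inp2 was among the genes called higher (log2 fold change 0.58, edgeR adjusted p = 0.000114), and Ccng2 had no call. Here 10 were higher, 4 lower and 14 without a call, with a median log2 fold change of 0.22 (range −0.62 to 1.21) against 0.00 over all genes, and 15 of the 28 did not overlap between the groups. These were 35.7% higher and 14.3% lower of the list, against 17.1% and 20% of all genes tested, and the count without overlap was near the 50.4% of all genes. Pmaip1 (Noxa, a BH3-only protein that promotes apoptosis) went from 20.9 ± 2.33 to 48.5 ± 5.02 CPM (log2 fold change 1.21, SE 0.11, edgeR adjusted p = 4.06e-05). Tnfrsf10b, a death receptor for TRAIL, went from 31.4 ± 2.63 to 66.0 ± 3.72 CPM (1.07, SE 0.09, adjusted p = 1.71e-05), and Ddb2, a sensor of ultraviolet damage in DNA repair, from 4.16 ± 0.947 to 7.39 ± 1.09 CPM (0.83, SE 0.21, adjusted p = 0.0118). Targets of the same apoptotic class were found on the other side: Bbc3 (Puma, another BH3-only protein) had a log2 fold change of −0.62 (SE 0.16, adjusted p = 0.0131) and Apaf1, the scaffold of the apoptosome, one of −0.51 (SE 0.14, adjusted p = 0.0171). Btg2, an antiproliferative gene, was lower too (−0.45, SE 0.06, adjusted p = 0.000592). The calls of Bbc3 and Apaf1 were each lost without 1 lone library (adjusted p = 0.0571 without replicate 2 for Bbc3 and 0.0546 without replicate 1 for Apaf1), and the count of lower targets dropped to 2 without lone replicate 2. Of the 29 genes, 22 had promoter windows (29 windows), and 1 of these genes, Rps27l, named here because it was that one, held a full p53 site; its log2 fold change was 0.03 (SE 0.11, adjusted p = 0.874; −0.10 without coculture replicate 3). Perp was not tested for lack of counts. Ddb2 and Apaf1 overlap genes on the opposite strand.

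The p53 regulators gave 0 genes higher, 6 lower and 10 without a call among the 16 tested of 18 (median log2 fold change −0.15). The 37.5% of the list that were called were near the 37.1% of all genes, and they were all lower, where 20% of all genes were. Daxx, an adaptor that works with Mdm2 as well as a histone chaperone, fell from 140 ± 5.27 to 44.9 ± 1.26 CPM, 3.11-fold (log2 fold change −1.64, SE 0.07, edgeR adjusted p = 1.64e-07). Mdm4, the partner of Mdm2 that masks the p53 activation domain, went from 87.9 ± 10.4 to 63.3 ± 3.93 CPM (−0.47, SE 0.10, adjusted p = 0.00427), opposite in sign to Mdm2. Atm, the kinase that signals DNA breaks to p53 (−0.67, SE 0.08, adjusted p = 0.000181), and Rchy1, another p53 ubiquitin ligase (−0.67, SE 0.13, adjusted p = 0.00316), were lower as well. Without coculture replicate 3, 2 regulators were called higher. The p53 relatives Trp63 and Trp73 were not tested, with 1 count in all for Trp63 and 0 for Trp73. Mdm4 and Rchy1 overlap other genes in the annotation.

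A list of 27 genes held cyclins, CDKs, Cdc25 phosphatases and the Rb and E2F families, not only direct targets of the inhibitors. Of these, 3 were higher, 11 lower and 13 without a call (median log2 fold change −0.29). The shares were 11.1% higher and 40.7% lower, against 17.1% and 20% of all genes. Ccnd1, which encodes cyclin D1, the partner of CDK4 and CDK6, rose from 91.5 ± 1.40 to 361 ± 16.1 CPM (log2 fold change 1.98, SE 0.06, edgeR adjusted p = 4.56e-08). Ccne1 (0.37, SE 0.09) and Ccnd2 (0.25, SE 0.06), further G1 cyclins, were higher, both with an adjusted p of 0.0121, which became 0.0505 for Ccne1 without lone replicate 1 and 0.0538 for Ccnd2 without lone replicate 2. Ccnb2 (−1.37, SE 0.16, adjusted p = 0.000148), Ccna2 (−1.31, SE 0.07, adjusted p = 1.06e-06) and Cdc25c (−1.29, SE 0.18, adjusted p = 0.000504) had the lowest values. Among the kinases, Cdk2 was lower (−0.34, SE 0.09, adjusted p = 0.0173), while Cdk4 (−0.29, SE 0.11, adjusted p = 0.0646) and Cdk6 (0.09, SE 0.09, adjusted p = 0.472) did not pass. The call of Cdk2 was lost without lone replicate 2 or 3 or coculture replicate 1 (adjusted p = 0.0681, 0.0659 and 0.0551), and Cdk4 was called with DESeq2 (adjusted p = 0.0370) and without coculture replicate 2 (0.0114). Ccnd1, Ccnd2, Ccna2, Cdc25c and the 3 kinases named here overlap genes on the opposite strand.

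Regulators of the CDK inhibitors, a list of 22, gave 3 higher, 5 lower and 14 without a call (median log2 fold change −0.04), or 13.6% higher and 22.7% lower, near the 17.1% and 20% of all genes. Tbx3, a repressor of the Cdkn2a locus, rose from 34.6 ± 2.49 to 92.4 ± 5.23 CPM (log2 fold change 1.42, SE 0.08, edgeR adjusted p = 1.76e-06), whereas its relative Tbx2 was lower (−0.65, SE 0.18, adjusted p = 0.0182). Foxo3 (0.55, SE 0.13, adjusted p = 0.0108) and Foxo1 (0.49, SE 0.11, adjusted p = 0.00730), which are known activators of Cdkn1b transcription, were higher. Ezh2, the methyltransferase of the Polycomb complex that silences Cdkn2a (−0.49, SE 0.09, adjusted p = 0.00274), and Klf4, an activator of Cdkn1a (−0.46, SE 0.08, adjusted p = 0.00145), were lower. Skp2, which targets p27, did not pass (−0.28, SE 0.14, adjusted p = 0.161) except without coculture replicate 1 (−0.41, adjusted p = 0.0437). The call of Tbx2 was lost without lone replicate 1 or 2 or coculture replicate 2 (adjusted p = 0.0580, 0.0768 and 0.0597). Tbx3, Foxo1, Ezh2 and Skp2 overlap genes on the opposite strand.

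Both remaining inhibitor genes were lower: Cdkn1c (p57) went from 5.77 ± 0.455 to 3.42 ± 0.556 CPM (−0.76 on the log2 scale with an SE of 0.19, adjusted p = 0.0113 in edgeR) and Cdkn3, a phosphatase that acts on CDK2, from 3.62 ± 0.377 to 1.60 ± 0.384 CPM (−1.17, SE 0.25, adjusted p = 0.00508). Of 4 further genes used as markers of senescence, Lmnb1 (lamin B1; −1.35, SE 0.09, adjusted p = 4.18e-06) and Hmgb2 (a chromatin protein; −1.21, SE 0.08, adjusted p = 3.65e-06) were lower. Glb1, which encodes the lysosomal β-galactosidase, was higher (0.35, SE 0.07, adjusted p = 0.00407), and Hmgb1 did not pass (−0.23, SE 0.10, adjusted p = 0.0924). Beside these 2 short lists, the shares over all genes tested were 17.1% higher and 20% lower. Cdkn1c, Hmgb1 and Glb1 overlap other genes in the annotation.

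**Figure D4:**
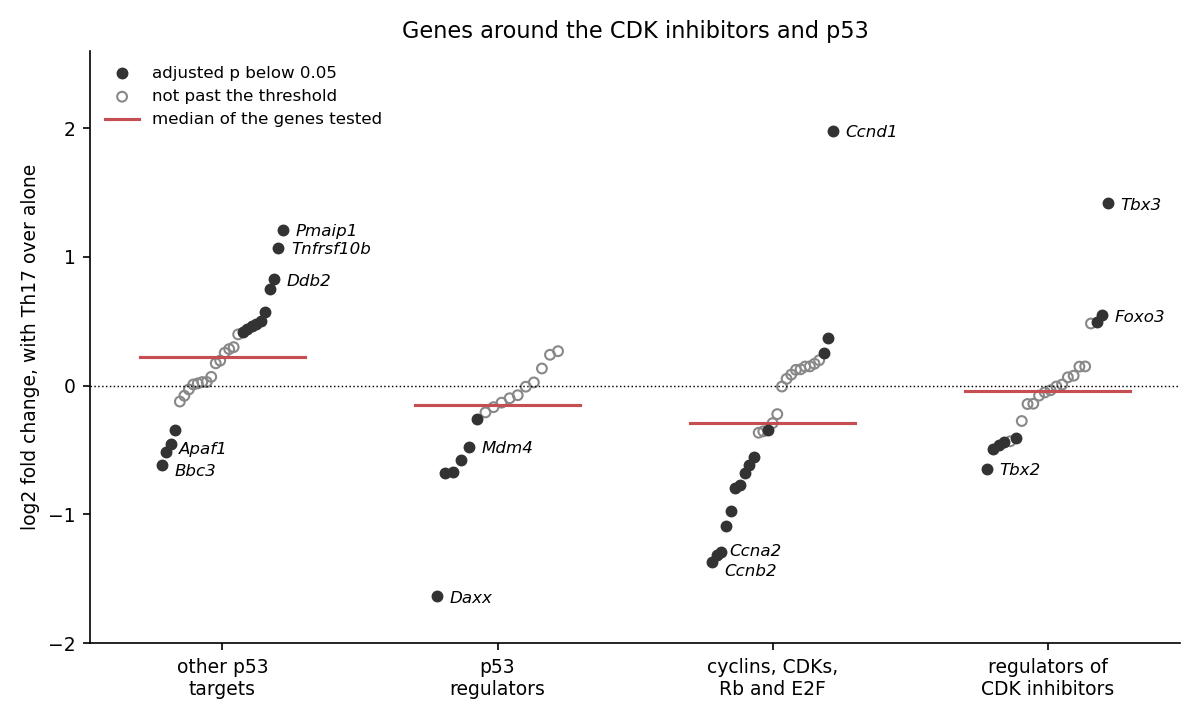
Log2 fold change with Th17 cells over alone (y axis) for the tested genes of 4 lists (x axis; genes sorted by value within a list). Filled points had an adjusted p below 0.05 in edgeR, open points did not, and red lines are list medians. The median was 0.22 for the other p53 targets and −0.29 for the cyclins, CDKs, Rb and E2F genes, where Ccnd1 stands apart at 1.98.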

How the data were processed

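Libraries were made with a VAHTS Universal RNA-seq kit for Illumina sequencing. After quality filtering in Seqtk, the authors mapped reads to mm10 (build per the labels) using HISAT2 2.0.4, and they deposited fragment counts per gene from StringTie 1.3.3b with FPKM values beside them. Use of strand and the treatment of multimapping fragments were not given in the sources used here. The deposited FPKM carried no TMM factor: count and FPKM implied the same gene length in every library. Samples were grouped by title, and table columns were matched through the sample descriptions.

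Counts were tested in R 4.3.3 with edgeR 4.0.16 (filterByExpr, minimum count 10; TMM; glmQLFit and glmQLFTest; common dispersion 0.0136; Benjamini-Hochberg adjustment over 13088 genes). SEs are the log2 fold change divided by the square root of F. The scripts were tested on simulated data, drawn with the common dispersion for every gene. There edgeR recovered 55% of genes changed by 0.6 on the log2 scale and 93% of those changed by 1, and called 5 unchanged genes. Alternatives were DESeq2 1.42.0, limma 3.58.1 on log2(FPKM + 1), other scalings, filters and fold limits, single libraries left out and a replicate block. As no molecular identifiers are described, fragments may be copies of one molecule. In these libraries of 12050529 to 13209581 counts, 3 counts correspond to 0.223 to 0.254 CPM.

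The 10 genes and the lists were chosen with earlier results of these data known. Named from the lists were up to 3 genes with the highest and 3 with the lowest fold changes among those called in each, with Mdm4, Trp63, Trp73, Skp2, Cdk2, Cdk4, Cdk6, Ccnd1 and both short lists named in any case. Positions are those of the deposited table, and sequences and windows are from RefSeq on GRCm38.p6.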

Additional observations from a re-analysis of the deposited data

How the results depend on the processing

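Cdkn1b, Cdkn2b, Cdkn2c, Mdm2 and Ccng1 kept their direction and call in 14 of 14 alternatives; the calls of Cdkn1a and Cdkn2d were lost in 8 and 4 of them, and the cause was not tested. Cdkn2a turned to −0.0014 without lone replicate 1 and −0.0053 without coculture replicate 3, and Trp53 to 4.7e-05 under scaling by library size alone and 0.0029 without coculture replicate 3; neither gene passed the threshold in any alternative. With single libraries left out, Cdkn2a ranged from −0.0053 to 0.23 and Trp53 from −0.12 to 0.0029. Rps27l ranged from −0.10 to 0.10 (−0.011 without lone replicate 2). With a fold change above 2 in addition, which by construction keeps fewer genes, the count fell from 4856 to 1524 over all genes, to 0 higher and 1 lower among the 10 genes, to 1 lower among the p53 regulators, to 2 higher and 0 lower among the other p53 targets, to 1 higher and 4 lower among the cyclins, CDKs, Rb and E2F genes, and to 1 higher and 0 lower among the regulators of the CDK inhibitors. Higher p53 regulators numbered 1 with library size as the only scaling and 0 to 2 with single libraries left out (2 without coculture replicate 3); lower other targets numbered 2 to 5 with single libraries left out (2 without lone replicate 2). Over all genes the count ranged from 3935 to 5196, and lower genes made up 43.9% of calls when scaled by library size alone and 44.2% in limma on FPKM, against 53.8%. The median of all genes was 0.07 with library size only, against 0.00. Cdkn1a in lone fibroblasts was at 158 as TMM-normalized CPM per kilobase, against 155 FPKM.

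Same-numbered libraries did not deviate together (correlations of 0.016, −0.026 and −0.0036), so the replicate numbers were not taken to pair them. With the replicate block the log2 fold change of Cdkn1a was 0.16 (adjusted p = 0.0691 in edgeR), and no other call among the 10 genes changed. With 3 libraries a group, the 95% interval of a gene with few counts such as Cdkn2a (137 to 203 counts) spanned −0.25 to 0.46 on the log2 scale. Changes on log2(FPKM + 1) are smaller for low genes by construction.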
